A study of Mus musculus with 17 samples.

Results

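Wild-type (WT) E14 cells, a mouse embryonic stem cell line, were compared after 7 days of 2i and before it. The comparison used 4 of the 17 libraries of the series, WT replicates 1 and 2 at day 7 and WT replicates 1 and 2 at day 0, chosen by genotype and day as the sample labels give them. Both groups grew on gelatine without feeder cells in medium with 10% serum and 1000 U per mL of LIF, the cytokine that keeps these cells from differentiating. The day 7 group also received 1 uM PD0325901, which inhibits MEK, and 3 uM CHIR99021, which inhibits GSK3. So serum and LIF were present in both groups, and the inhibitors were added to them and did not replace them. All WT libraries come from 1 cell line, and the labels do not say whether the libraries of a group came from separate cultures. The other libraries are WT cells at days 1 and 2 and cells of the same line with a slow-elongating RNA polymerase II (RNAPII-mut) at days 0, 1, 2 and 7.

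In serum and LIF, stem cell cultures are mixed: FGF signalling through MEK and ERK pushes cells towards differentiation, while LIF acting through STAT3 supports self-renewal. Blocking MEK removes the ERK signal. Blocking GSK3 stabilises beta-catenin, which lifts repression by Tcf7l1 from naive pluripotency genes. Cells in 2i are known for a uniform naive state that resembles the preimplantation epiblast and for low de novo DNA methylation.

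RNA was measured as read counts per gene, with 53587697 to 56138844 counts in each of the 4 libraries. Values below are CPM, counts scaled to a common library size with TMM factors, and are given for replicates 1 and 2 in that order. They do not take gene length into account, so they compare libraries for 1 gene and not genes with each other. RNA was taken from whole cultures, in which fewer cells of a type and less RNA per cell cannot be told apart. Stem cell markers were present in all 4 libraries. Pou5f1, the central pluripotency factor, stood at 1343 and 1877 CPM at day 0 and at 1775 and 2244 CPM at day 7. Its partner Sox2 stood at 444 and 453 against 673 and 497 CPM. Neither passed the test (adjusted p = 0.615 and 0.301). Sall4 was at 302 and 325 against 325 and 280 CPM. The other stem cell markers chosen changed, Nanog upwards and Utf1 and Lin28a downwards, and are given below.

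The day 0 libraries stood apart from each other in transcripts of other cell types. Day 0 replicate 1 held mesoderm and smooth muscle transcripts: the mesoderm regulator T read 113.4 CPM there and 0.203 CPM in replicate 2. The contractile gene Acta2 read 151 against 0.102 CPM and the collagen gene Col1a1 54.2 against 1.91 CPM. Thy1, also a fibroblast marker, went the other way (4.96 against 23.3 CPM). The summed level of 18 trophoblast genes was also higher in replicate 1, at 659.9 against 92.6 CPM. The keratin genes Krt8 (266.7 against 37.2 CPM) and Krt18 (238.8 against 17.15 CPM) held most of that sum in replicate 1. Elf5, also a trophoblast marker, read 0 against 0.1692 CPM. Cdx2 (13.7 against 0.3045 CPM), Gata3 (3.149 against 0.5413 CPM) and Krt7 (6.851 against 1.725 CPM) were higher in replicate 1. For primitive endoderm the order was the opposite, with replicate 2 higher for Gata6 (28.2 against 1.24 CPM) and for Sox17 (8.73 against 0.368 CPM). Same-numbered WT libraries also deviated together from their group means at every pair of days. The fit reported leaves these pairs out, so its adjusted p-values are unpaired. An alternative fit took the pairs as a block within WT. Its results are given where they move a list's count of calls by more than 1.5 times. The part of the transcripts of other cell types in the results below was not tested. In the lists below, which draw on known functions, a gene counts as called when its Benjamini-Hochberg adjusted p from edgeR's quasi-likelihood test is under 0.05. Standard errors (SE) are of the log2 fold change between groups of n = 2 and 2 libraries. They were derived from the test statistic, whose estimate of spread comes from all 17 libraries.

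**Figure D1:**
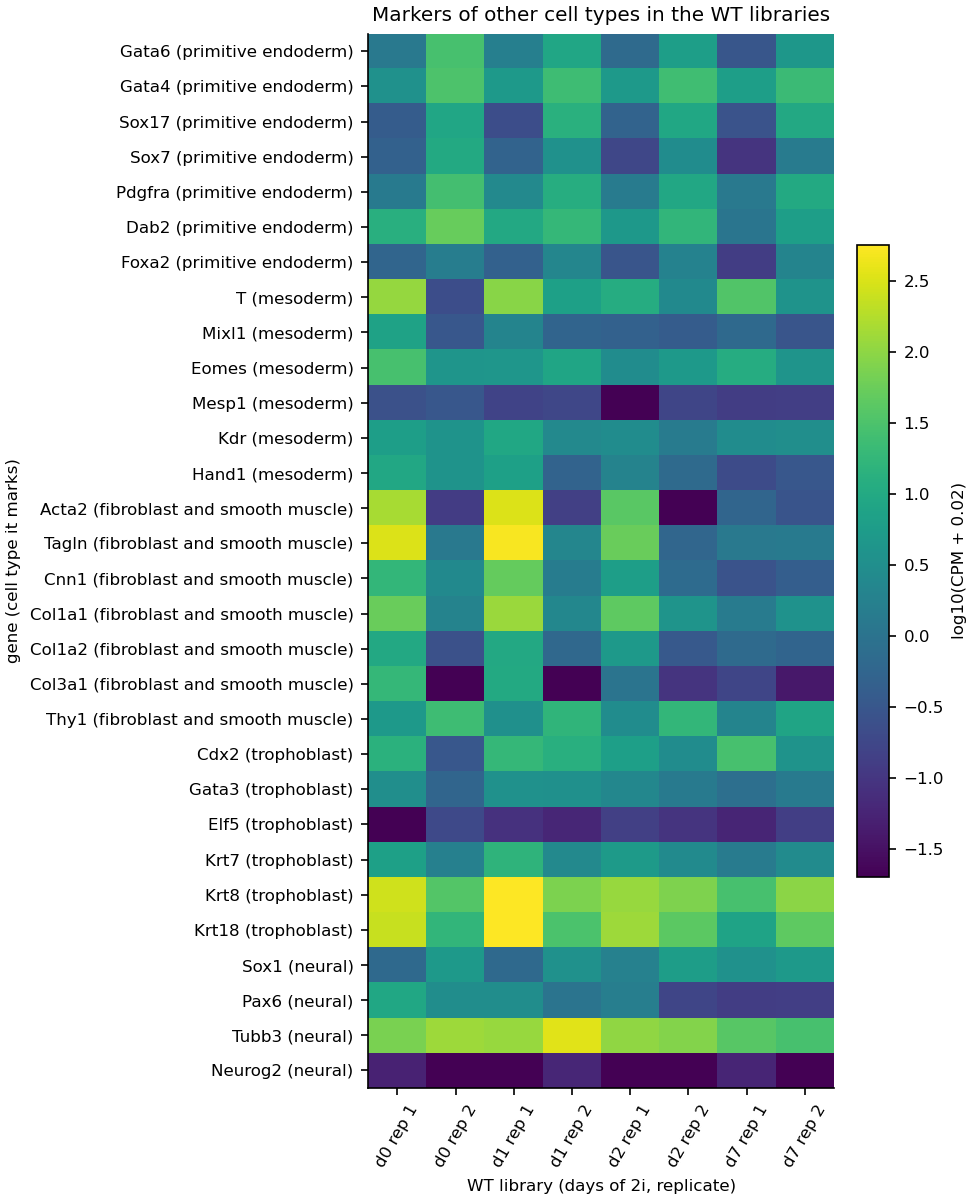
Levels of markers of 5 other cell types (rows, with the type each marks) in the 8 WT libraries (columns, by days of 2i and replicate), as log10(CPM + 0.02) on the colour scale. Acta2 and Tagln are bright in replicate 1 of days 0, 1 and 2, at 151 and 329 CPM at day 0, and stand at or below 1.31 CPM in both day 7 libraries, and Gata6 and Sox17 are brighter in replicate 2 at every day.

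Of 15365 genes tested, 1955 (12.7%) differed between day 7 and day 0, 1017 (6.62%) of them higher and 938 (6.1%) lower after 2i. The change was at least 2-fold in 1601 of them and at least 4-fold in 877. The libraries of the groups did not overlap in 1954 of the 1955, and also not in 54.5% of all genes tested. The count moved widely with the libraries and the model of the fit. It was 4007 with the replicate pairs as a block within WT, 3236 by DESeq2, 54 when only the WT libraries entered the fit and 133 when only the 4 compared libraries did, where 3045 genes had an unadjusted p under 0.05. With each of the 4 libraries left out in turn it lay between 742 (without day 7 replicate 1) and 1500, and was 825 without day 0 replicate 1 and 954 without day 7 replicate 2. In all, 401 genes were called every time, 219 higher and 182 lower. Of the 109 called genes that the rule for named genes took, the fold moved by more than 1.5 times in 38 without day 0 replicate 1, in 31 without day 0 replicate 2, and in 18 and 17 without day 7 replicates 1 and 2, and the sign turned in 0.

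**Figure D2:**
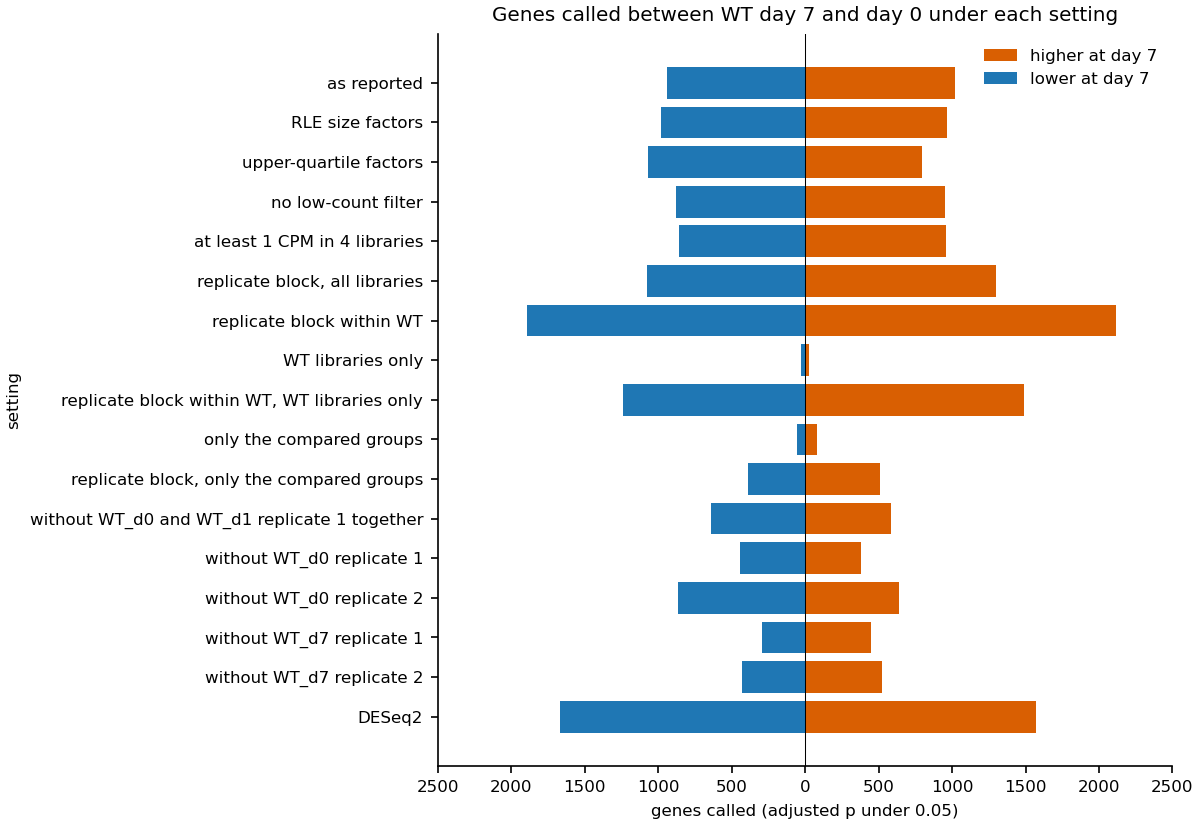
Number of genes called between WT day 7 and WT day 0 (x axis, genes higher to the right of 0 and lower to the left) in the fit reported and under 16 alternatives (y axis). Fits on the WT libraries alone or on the compared groups alone give 54 and 133 calls, and the fit with the replicate pairs as a block within WT gives 4007.

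Naive pluripotency factors, the transcription factors that hold the preimplantation-like state, were called in 1 direction: 5 of 16 were higher and 0 lower, against 6.62% and 6.1% of all genes, and the list's median log2 fold change was 1.03 against -0.01 over all genes tested. Tfcp2l1, a direct target of both LIF and beta-catenin, stood at 244.6 and 308 CPM at day 0 and at 1144 and 1150 CPM at day 7. The day 7 libraries agreed closely and lay far above both day 0 libraries, a 4.15-fold rise (log2 2.05, SE 0.28, adjusted p = 0.00105). Prdm14, which represses FGF signalling and de novo methylation genes, went from 13.3 and 19.5 to 73.3 and 63.1 CPM, also 4.15-fold (adjusted p = 0.00263). Klf4, a Krüppel-like factor downstream of STAT3, rose 2.98-fold from 121.3 and 182 to 537 and 367 CPM (adjusted p = 0.00711), with the wider spread at day 7. Nanog, the homeobox factor whose uneven level marks serum cultures, rose 2.27-fold from 282 and 351 to 734 and 699.7 CPM (adjusted p = 0.00847). Klf2, a Krüppel-like factor otherwise destabilised by ERK, rose 2.04-fold from 214 and 258 to 516 and 444 CPM (adjusted p = 0.0357).

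The promoters of Tfcp2l1 and Nanog are shown because both genes rose together with Klf4 and Klf2, whose family binds GC-rich boxes. Those of Prdm14, Klf4 and Klf2, also called higher, are not shown. The sequences are the 250 bases before the annotated start, 5′ to 3′ on the gene's own strand, from RefSeq on GRCm38.p6. Capitals mark every match to the KLF-type box GGGCGTG on either strand.
Tfcp2l1 (chr1:118627695-118627944, plus strand): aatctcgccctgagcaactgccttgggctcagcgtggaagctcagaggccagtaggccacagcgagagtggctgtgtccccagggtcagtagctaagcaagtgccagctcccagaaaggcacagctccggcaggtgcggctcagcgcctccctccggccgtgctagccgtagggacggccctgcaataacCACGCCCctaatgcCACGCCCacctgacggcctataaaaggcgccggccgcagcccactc
Nanog (chr6:122707239-122707488, plus strand): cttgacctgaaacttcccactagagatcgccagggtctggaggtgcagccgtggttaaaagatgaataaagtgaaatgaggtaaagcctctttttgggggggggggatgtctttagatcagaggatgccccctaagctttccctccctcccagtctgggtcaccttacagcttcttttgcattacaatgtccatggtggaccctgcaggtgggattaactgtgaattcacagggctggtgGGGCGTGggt
Tfcp2l1 has 2 matches, the first starting 60 bases before the gene's start, and Nanog has 1, starting 10 bases before it. The box occurs in 12.5% of the promoters of genes tested, in 15.3% of those of genes called higher and in 11.2% of those of genes called lower, and in 7.55% of all 32851 promoters of the table. Other boxes were counted too, with shares given for genes tested, called higher and called lower. The ETS-type box CCGGAAG occurs in 11.5, 8.47 and 5.82%. The TCF-type box CTTTGAT occurs in 2.39, 2.79 and 1.54%, and the STAT-type box TTCNNNGAA in 5.89, 5.39 and 4.84%. These are matches of letters and not measured binding.

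Not every naive factor passed. Esrrb, a nuclear receptor and target of Tcf7l1 repression, was at 463 and 824 CPM at day 0 and at 938 and 998.5 CPM at day 7 (log2 0.59, adjusted p = 0.172, 0.0372 with the block and 0.0416 without day 0 replicate 2). Tbx3, a T-box factor of the naive network, was at 50.4 and 226 against 374 and 396 CPM (log2 1.48, adjusted p = 0.128, 0.00884 with the block and 0.0189 without day 0 replicate 2). In both the groups did not overlap, but the day 0 libraries differed from each other, replicate 1 being the lower. Zfp42 (Rex1), a common reporter of the naive state, was at 491 and 894 against 613 and 633 CPM, Klf5 at 69.7 and 170.5 against 87.2 and 70.9 CPM, and Nr0b1 (Dax1) at 106.5 and 181.5 against 107.2 and 104.6 CPM. For these 3 the groups overlapped. With the block 11 of the 16 naive factors were called higher, and 3 to 6 when each library was left out, with 1 lower without day 0 replicate 1, where the list's median was 0.63. Tfcp2l1 and Prdm14 passed in all 4 of those fits. Klf2 passed in none (adjusted p up to 0.197), Klf4 was lost without day 0 replicate 1 (0.0689) and without day 7 replicate 1 (0.0562), and Nanog without day 0 replicate 1 (0.0784).

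**Figure D3:**
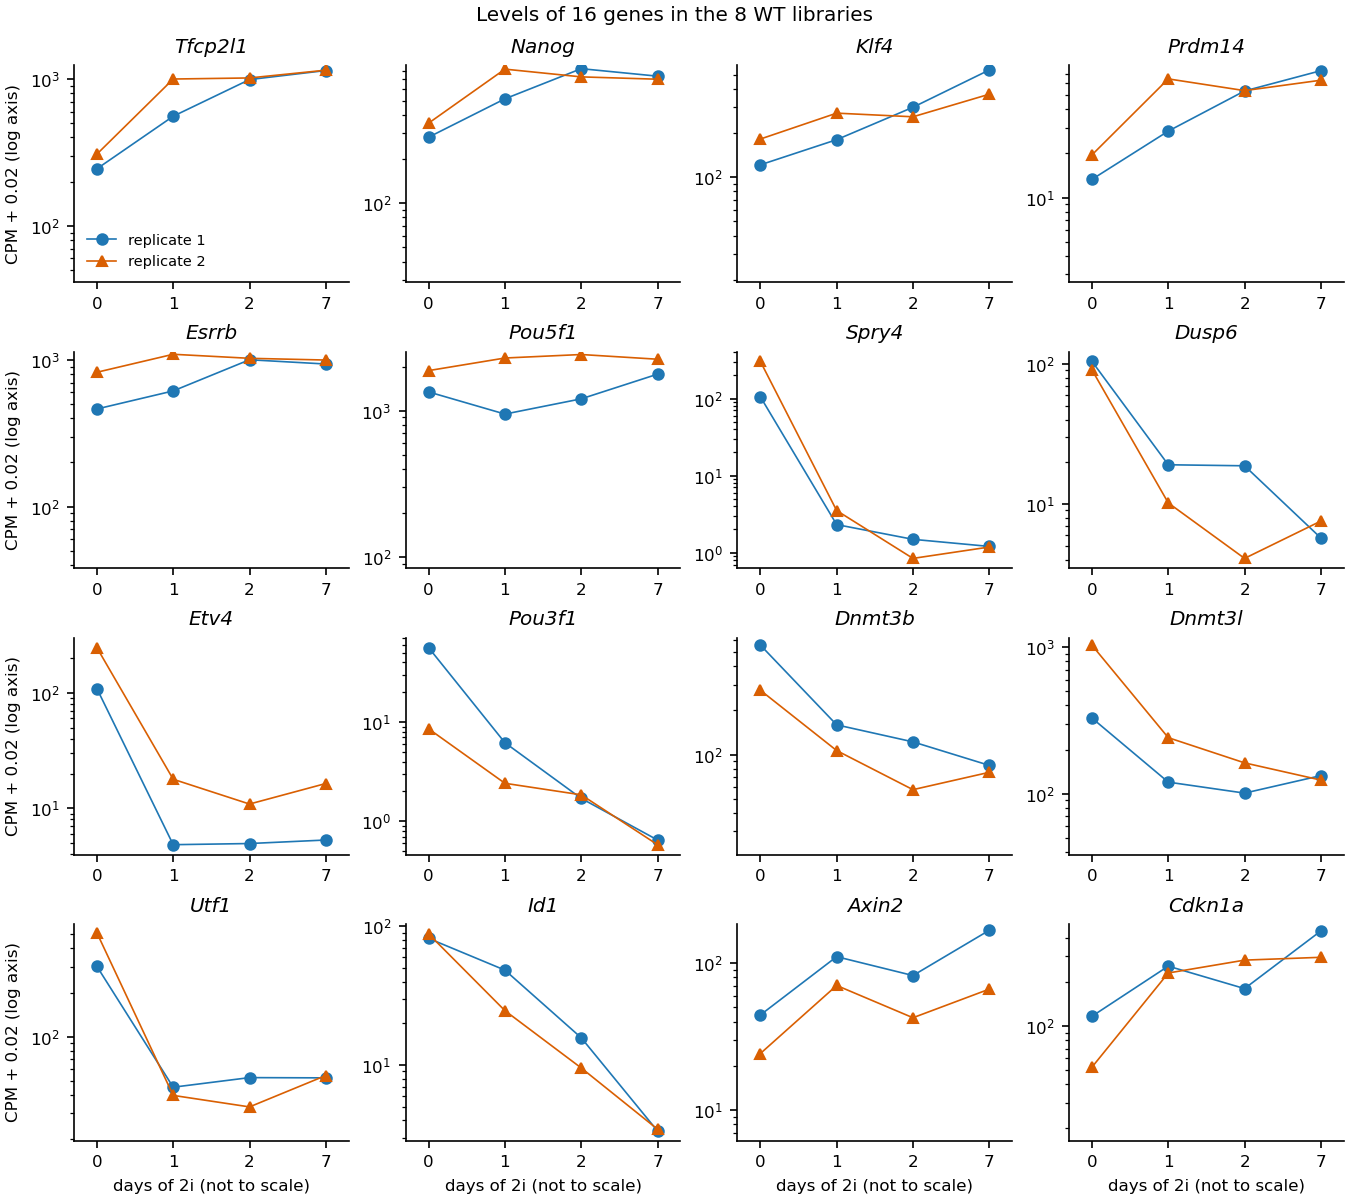
CPM + 0.02 (log axis) of 16 genes against days of 2i (not to scale) in the 8 WT libraries, replicate 1 as circles and replicate 2 as triangles. Tfcp2l1, Nanog, Klf4 and Prdm14 lie higher at day 7 than at day 0 in both replicates, and Spry4, Dusp6, Etv4, Pou3f1, Utf1 and Id1 lie lower.

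Core pluripotency genes are expressed by both naive and primed cells. Of 12, 5 were called lower and 0 higher, 41.7% against 12.7% of all genes (median log2 -0.40). Utf1, a chromatin protein of undifferentiated cells, fell from 301.5 and 511 to 52.4 and 54.4 CPM, 7.61-fold (SE of log2 0.51, adjusted p = 0.00425). The day 7 libraries were nearly equal and the day 0 libraries were not. Lin28a, an RNA-binding protein that blocks let-7 processing, fell 5.08-fold from 695 and 394 to 148 and 66.0 CPM (adjusted p = 0.00734), and in both groups replicate 1 was the higher. Dppa4 and Dppa2, partner proteins that bind bivalent promoters, were lower too. Dppa4 went from 131 and 162 to 71.9 and 76.5 CPM (1.97-fold, adjusted p = 0.00477). Dppa2 went from 62.8 and 87.6 to 35.1 and 22.1 CPM (2.63-fold, adjusted p = 0.0177). The number of core genes called lower was 2 to 4 when each library was left out, and the median was -0.17 without day 7 replicate 2. Utf1 and Dppa4 passed each time, and Lin28a was lost without day 0 replicate 1 (0.0523) and day 7 replicate 2 (0.0591), as was Dppa2 without day 0 replicate 2 (0.0825) and day 7 replicate 2 (0.137).

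Genes of the formative and primed states, through which epiblast cells pass after implantation, held 5 lower and 0 higher calls among 15. The share called was 33.3% against 12.7% of all genes, and 14 of 15 had a negative fold change. The median log2 fold change was -1.47, but -0.38 without day 0 replicate 1 and -0.95 without day 7 replicate 2. Pou3f1 (Oct6), a POU factor of the primed epiblast, fell from 55.9 and 8.51 to 0.629 and 0.562 CPM, 53.9-fold (log2 -5.75, adjusted p = 0.00101). Without day 0 replicate 1 its log2 fold change was -3.83. Fgf5, a ligand and the usual marker of the primed state, was at 16.95 and 0.304 CPM at day 0 and had 0 counts in both day 7 libraries. With the day 0 libraries pooled, it was at least 310.5-fold lower, with the day 7 level set at 3 counts over the group (adjusted p = 0.0175). That bound leaves out the spread between the day 0 libraries. Most of the day 0 signal of Fgf5 came from replicate 1. Sox3, a SOX factor of neural competence, fell 8.47-fold (adjusted p = 0.00942) and Lin28b, the paralogue of Lin28a, 7.2-fold (adjusted p = 0.0106). Otx2, which directs exit from the naive state, was at 36.1 and 14.1 against 11.2 and 6.63 CPM and missed the threshold (log2 -1.50, adjusted p = 0.0838, 0.0335 with the block and 0.0395 without day 0 replicate 2). The list held 8 calls with the block, 1 without day 0 replicate 1, 2 without day 7 replicate 1 and 9 without day 0 replicate 2, and 2 lower and 1 higher without day 7 replicate 2. Pou3f1 passed each time. Without day 0 replicate 1, the library with mesoderm transcripts, Fgf5 (adjusted p = 0.113), Sox3 (0.0667) and Lin28b (0.0906) did not. Fgf5 and Lin28b also missed without either day 7 library (0.0606 to 0.0888), and Sox3 without day 7 replicate 2 (0.0654).

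Part of the transcripts that report activity of ERK, the kinase downstream of MEK, were lower at day 7. Of 22 ERK targets and feedback genes 9 were called lower and 0 higher, 40.9% against 12.7% of all genes (median log2 -1.69). Spry4, a feedback inhibitor of receptor tyrosine kinase signalling, was at 105 and 303 CPM at day 0 and at 1.18 and 1.16 CPM at day 7, a 174-fold fall (log2 -7.44, SE 1.21, adjusted p = 0.00296). The level at day 7 was nearly the same in both libraries, while the starting level differed. Dusp4 and Dusp6, phosphatases that inactivate ERK, fell 75.7-fold (95.01 and 46.2 to 0.869 and 0.993 CPM, adjusted p = 0.00317) and 14.7-fold (104 and 90.7 to 5.70 and 7.53 CPM, adjusted p = 0.012). Etv4, an ETS factor induced by FGF, went from 109 and 246 to 5.29 and 16.4 CPM (16.4-fold, adjusted p = 0.0164). Phlda1, an early response gene, fell 11.5-fold (adjusted p = 0.00334) and Spry1, a second Sprouty, 3.15-fold (adjusted p = 0.00695).

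Other members of the ERK list were not called, although 20 of the 22 had a negative fold change. Etv5, the close relative of Etv4, was at 524 and 345 CPM at day 0 and at 400.2 and 347 CPM at day 7 (log2 -0.22, SE 0.26, adjusted p = 0.61). Egr1, an immediate early gene, was at 77.3 and 30.6 against 40.9 and 1.20 CPM, so that replicate 1 at day 7 lay within the day 0 range (adjusted p = 0.718). Egr1 and Etv5 were among 13 members that were not called. The list held 4 to 7 calls when each library was left out, where Spry4, Dusp4 and Phlda1 passed each time. Dusp6 was lost without either day 7 library (0.0882 and 0.0678), Etv4 without day 0 replicate 2 (0.0555) and day 7 replicate 1 (0.109), and Spry1 without day 0 replicate 1 (0.0501) and day 7 replicate 2 (0.0594).

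FGF ligands and receptors, which act upstream of ERK, moved in the same direction. Of 14, 7 were called lower and 0 higher, 50% against 12.7% of all genes. The median log2 fold change was -2.57, or -2.13 with members at 0 counts set at their bound. Among the ligands, Fgf17 fell 6.9-fold from 28.9 and 17.9 to 3.87 and 2.92 CPM (adjusted p = 0.000455), and Fgf15 fell 16.3-fold from 14.3 and 9.41 to 0.851 and 0.599 CPM (adjusted p = 0.0016). Among the receptors, Fgfr2 fell 13.3-fold from 17.2 and 13.4 to 1.11 and 1.20 CPM (adjusted p = 0.0057), and Fgfr3 fell 27.6-fold from 1.31 and 5.01 to 0.037 and 0.187 CPM (adjusted p = 0.0164). Fgfr1, the main receptor of these cells, had a log2 fold change of 0.01 (adjusted p = 0.98) and Fgf4, their main ligand, of 1.03 (adjusted p = 0.052). The list held 2 lower calls without day 7 replicate 1 and 4 without any other of the 4 libraries, where Fgf15 and Fgf17 passed each time. Fgfr2 was lost without day 7 replicate 1 (0.0512), and Fgfr3 without day 7 replicate 1 (0.107) and day 0 replicate 2 (0.071).

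Targets of beta-catenin, which CHIR99021 stabilises, changed unevenly: 4 of 20 were called higher and 1 lower, 25% against 12.7% of all genes. The median log2 fold change was -0.07. Cdx1, a caudal homeobox gene, rose 19.1-fold from 7.07 and 2.81 to 107 and 81.3 CPM (log2 4.25, SE 0.58, adjusted p = 0.00107). Axin2, which feeds back on the pathway, was at 44.3 and 24.2 against 167.5 and 66.5 CPM (3.42-fold, adjusted p = 0.0333). Rnf43, a ubiquitin ligase that removes Wnt receptors, rose 8.95-fold from 1.32 and 0.491 to 11.8 and 4.42 CPM (adjusted p = 0.0103). In Axin2 and Rnf43 replicate 1 was the higher at both days. Nkd2, an inhibitor of Dishevelled, fell 2.9-fold from 3.79 and 3.15 to 1.07 and 1.31 CPM (adjusted p = 0.0323).

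T and Lef1, also beta-catenin targets, differed widely between the libraries of a day. T was at 34.7 and 3.88 CPM at day 7, between the day 0 values of 113.4 and 0.203 CPM (log2 -1.56, adjusted p = 0.55). Without day 0 replicate 1 its fold change was 6.55 on the log2 scale and not called (adjusted p = 0.0762). It was also 6.55 without replicate 1 of days 0 and 1 together, a fit chosen after seeing the data (adjusted p = 0.0249). Lef1, a partner of beta-catenin, was at 46.0 and 7.61 against 14.3 and 1.95 CPM (adjusted p = 0.361, or 0.0186 with the block). Sp5, a target that represses others, was at 57.4 and 0.947 against 154.0 and 50.5 CPM (adjusted p = 0.309). The list held 7 higher and 2 lower calls with the block, and 1 higher and 2 lower without day 0 replicate 2. It held 1 higher and 0 lower without day 7 replicate 1. The median was 1.17 without day 0 replicate 1. Cdx1 passed each time. Axin2 failed in 3 of the 4 fits (adjusted p up to 0.239, without day 7 replicate 1), Nkd2 in all 4 (up to 0.143), and Rnf43 without day 0 replicate 2 (0.0598) and day 7 replicate 1 (0.0769).

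Of the BMP ligands and Id genes, 2 of 17 were called higher and 4 lower, 35.3% against 12.7% of all genes (median log2 -1.85). Id1, an inhibitor of differentiation that serum BMP induces, stood at 82.0 and 88.2 CPM at day 0 and at 3.33 and 3.43 CPM at day 7, 25.2-fold (log2 -4.65, SE 0.34, adjusted p = 7.26e-05). Id4 moved the other way, from 4.20 and 3.10 to 26.0 and 18.8 CPM (6.13-fold, adjusted p = 0.000767). Id3 was at 72.0 and 40.1 against 18.4 and 12.6 CPM (adjusted p = 0.129, or 0.0306 with the block). The ligands split too. Bmp4 fell 4.79-fold from 52.4 and 142 to 24.8 and 15.96 CPM (adjusted p = 0.00655), and Bmp7 rose 7.95-fold from 3.23 and 4.16 to 26.5 and 32.3 CPM (adjusted p = 0.00478). Id1, Id4 and Bmp7 passed with every library left out, and Bmp4 was lost without day 7 replicate 2 (0.0578) and had a log2 fold change of -1.36 against -2.26 without day 0 replicate 2. The list held 6 lower calls with the block and 1 without day 7 replicate 2, and its median was -0.27 without day 0 replicate 1.

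Both groups had LIF, and of 12 genes of the LIF and STAT3 pathway 1 was called: Socs2, a feedback inhibitor of cytokine receptors, fell from 68.6 and 72.9 to 25.6 and 30.5 CPM (2.52-fold, adjusted p = 0.0223). Of 15 genes of the Nodal pathway 1 was called: Smad7, an inhibitory Smad, rose from 74.4 and 81.0 to 169 and 169 CPM (2.17-fold, adjusted p = 0.0166). These shares, 8.33 and 6.67%, lie below the 12.7% of all genes. Lefty1, a Nodal antagonist, was at 218 and 52.1 against 34.1 and 3.46 CPM (log2 -2.85, adjusted p = 0.101), and passed with the block (0.000128), falling within both pairs. With the block the LIF list held 2 higher and 4 lower calls and the Nodal list 3 and 5. Neither Socs2 nor Smad7 passed with any of the 4 libraries left out (adjusted p up to 0.122 and 0.104).

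All 3 genes of de novo DNA methylation were called lower, while 0 of 10 genes of maintenance methylation and TET oxidation were. Over all genes tested 6.1% were called lower. Dnmt3a, a de novo methyltransferase, was at 179 and 186 CPM at day 0 and at 28.7 and 21.0 CPM at day 7 (7.34-fold, log2 -2.88, SE 0.36, adjusted p = 0.000633). Dnmt3b, the second such enzyme, fell 5.2-fold from 558 and 275 to 84.5 and 75.8 CPM (adjusted p = 0.00703), and Dnmt3l, their cofactor without catalytic activity, 5.28-fold from 328 and 1028 to 132.8 and 123.8 CPM (adjusted p = 0.00734). The day 0 libraries ranked oppositely for these last genes, Dnmt3b being higher in replicate 1 and Dnmt3l in replicate 2, while the day 7 libraries were close for both. Dnmt1, which copies methylation at replication, was at 416 and 488 against 502 and 448 CPM (log2 0.07, SE 0.17, adjusted p = 0.811). Uhrf1, which recruits it, was at 451 and 704 against 796 and 1038 CPM (adjusted p = 0.217, or 0.0182 with the block). Dnmt3a passed with every library left out. Dnmt3b was lost without day 0 replicate 1 (0.0558) and day 7 replicate 2 (0.0536), and Dnmt3l in all fits but that without day 0 replicate 1 (0.0523 to 0.0541), its log2 fold change being -1.35 without day 0 replicate 2. With the block 1 gene of maintenance methylation and TET oxidation was called higher and 1 lower.

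Lists of genes under control of DNA methylation or Polycomb differed in their share of calls. Of 23 imprinted genes, expressed from 1 parental allele, 8 were called lower and 1 higher, 39.1% against 12.7% of all genes. Their median log2 fold change was -1.14, or -0.42 without day 0 replicate 1. Cdkn1c (p57), a maternally expressed cell cycle inhibitor, fell from 55.96 and 57.8 to 2.55 and 4.83 CPM, 15.4-fold (SE of log2 0.33, adjusted p = 7.26e-05). Dlk1, a paternally expressed Notch-like ligand, fell 21.1-fold from 7.89 and 3.99 to 0.222 and 0.337 CPM (adjusted p = 0.000673), and Mest 5.65-fold from 116 and 104 to 26.5 and 12.3 CPM (adjusted p = 0.00565). Plagl1 (Zac1), a zinc finger factor, was the member that rose, 20.6-fold from 0.838 and 0.135 to 12.9 and 7.19 CPM (adjusted p = 0.00821). These 4 passed with every library left out, with Plagl1 between 3.59 and 6.19 on the log2 scale, and the list held 3 lower calls without day 0 replicate 1 and 3 without day 7 replicate 1, against 12 lower and 2 higher with the block. Of 29 germline and meiosis genes, many of which DNA methylation silences, 5 were called lower and 0 higher. That is 17.2% called, near the 12.7% of all genes. Ddx4 (Vasa), a germ cell helicase, fell 6.72-fold from 19.7 and 19.03 to 3.51 and 2.25 CPM (adjusted p = 0.0015), and Tdrd1, a piRNA pathway protein, 9.67-fold from 6.23 and 2.45 to 0.407 and 0.487 CPM (adjusted p = 0.00783). Ddx4 passed with every library left out, and Tdrd1 was lost without day 0 replicate 1 (0.0567) and day 7 replicate 1 (0.0649). The germline list held 8 lower and 4 higher calls with the block, 1 call without day 7 replicate 1, and 2 lower and 1 higher without day 0 replicate 2.

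Hox genes, which Polycomb keeps silent in stem cells, were at low levels. Their median log2 fold change was 0.76, or 1.55 and 0.37 without day 0 replicates 1 and 2. Of 32 tested, 7 were called higher and 0 lower, 21.9% against 12.7% of all genes. Of the 7 called, 6 lie in the Hoxc cluster on chromosome 15. Hoxc13 rose 5.68-fold from 2.75 and 2.44 to 17.01 and 12.4 CPM (adjusted p = 0.00528), Hoxc12 14.7-fold from 0.301 and 0.338 to 6.84 and 2.64 CPM (adjusted p = 0.00138), and Hoxc4 13.6-fold from 0.402 and 0.609 to 5.40 and 8.43 CPM (adjusted p = 0.00478). Hoxb13, at the far end of the Hoxb cluster on chromosome 11, rose 13.8-fold from 0.435 and 0.778 to 9.41 and 7.46 CPM (adjusted p = 0.00836, or 0.075 without day 0 replicate 1). Hoxc13, Hoxc12 and Hoxc4 passed with every library left out. The Hox list held 10 higher and 2 lower calls with the block, and 4 higher without day 0 replicate 2 or day 7 replicate 1. Of 12 subunits of the Polycomb complex PRC2, 2 were called lower and 0 higher, 16.7% against 12.7% of all genes. Phf19, a subunit that reads methylated histone tails, fell 7.98-fold from 8.24 and 25.1 to 1.26 and 2.92 CPM (adjusted p = 0.00477), and Jarid2 fell 2.32-fold from 451 and 760 to 301 and 222 CPM (adjusted p = 0.0315). Phf19 passed with every library left out and Jarid2 failed in 3 of the 4 fits (up to 0.185).

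**Figure D4:**
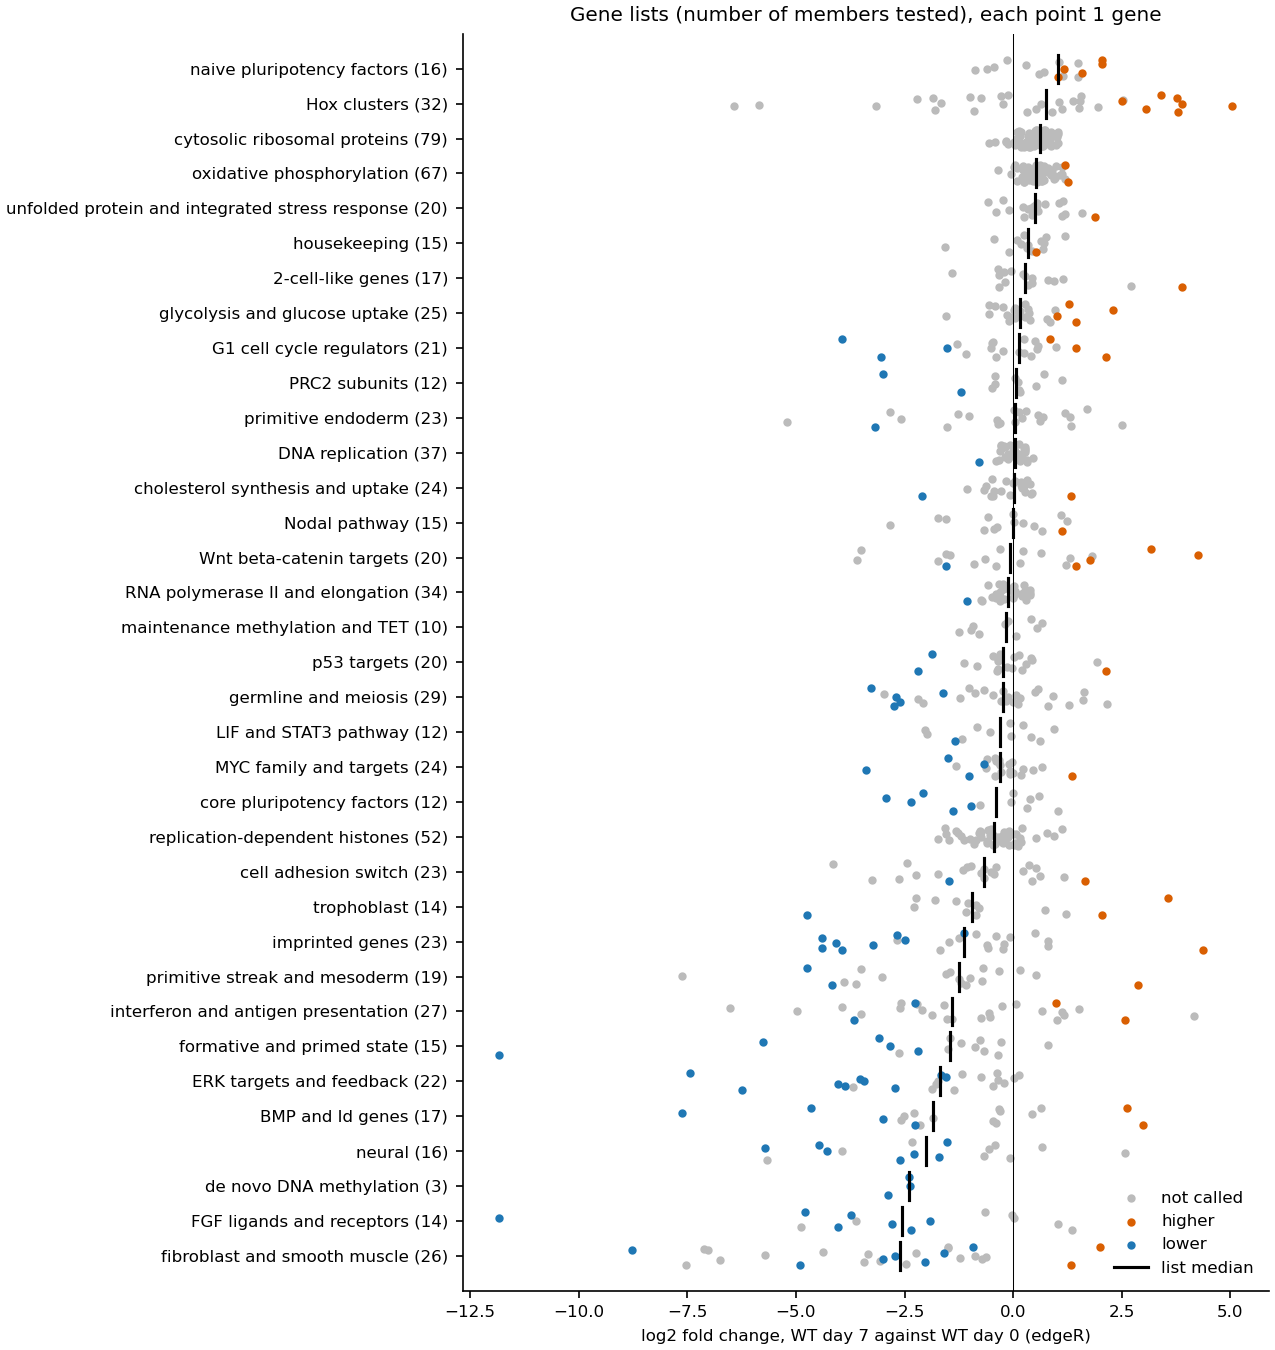
Log2 fold change between WT day 7 and WT day 0 (x axis) of each tested member of the 35 gene lists (y axis, ordered by median), with genes called higher in orange, called lower in blue and not called in grey, and a black bar at the list median. Naive pluripotency factors have the highest median (1.03), and FGF ligands and receptors and the fibroblast and smooth muscle list the lowest (-2.57 and -2.60).

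Regulators of the G1 phase moved in both directions, 3 of 21 higher and 3 lower, 28.6% called against 12.7% of all genes. Cdkn1a (p21), an inhibitor of cyclin-dependent kinases, rose 4.37-fold from 116 and 52.3 to 443.5 and 293 CPM (log2 2.13, SE 0.38, adjusted p = 0.00477), and Cdkn2a, the locus of p16 and p19Arf, 2.72-fold from 16.5 and 12.2 to 40.5 and 37.5 CPM (adjusted p = 0.0141). Ccne1, cyclin E1, fell 2.87-fold from 363 and 425 to 133 and 141 CPM (adjusted p = 0.0015). Ccnd1, cyclin D1, was at 286 and 154 against 217 and 116 CPM, and its groups overlapped (adjusted p = 0.544). Of 20 p53 targets 1 was called higher (Cdkn1a again) and 2 lower, Perp (4.58-fold) and Pmaip1 (Noxa, 3.68-fold). That is 15% called, near the 12.7% of all genes. Of 37 DNA replication genes 1 (2.7%) was called, below the 12.7% of all genes. It was Orc2, a subunit of the origin recognition complex, which fell 1.72-fold from 175 and 197 to 116 and 100.1 CPM (adjusted p = 0.0204). Cdkn1a and Ccne1 passed with every library left out. Cdkn2a was lost without day 0 replicate 2 (0.0794) and day 7 replicate 1 (0.0655), Perp without day 0 replicate 1 (0.166) and day 7 replicate 1 (0.127), Pmaip1 in 3 of the 4 fits (up to 0.282), and Orc2 in all 4 fits (up to 0.136). With the block the p53 list held 2 higher and 3 lower calls and the replication list 1 and 1.

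Myc, whose transcription LIF and Wnt signalling support, fell 10.4-fold from 75.5 and 156 to 10.7 and 11.4 CPM (log2 -3.38, SE 0.67, adjusted p = 0.007). Its relative Mycl rose 2.54-fold from 29.0 and 9.61 to 57.1 and 40.9 CPM (adjusted p = 0.0341). Of the 24 members of the MYC list 4 were called lower and 1 higher, 20.8% against 12.7% of all genes (median log2 -0.31). Odc1, the first enzyme of polyamine synthesis and a MYC target, went from 751.5 and 825 to 265 and 289 CPM (2.85-fold, adjusted p = 0.007). Nolc1, a nucleolar chaperone, went from 621 and 596 to 391 and 372 CPM (1.59-fold, adjusted p = 0.00992). Without day 7 replicate 1 the list held 0 calls, and Myc (adjusted p = 0.0579) and Odc1 (0.0556) then missed narrowly. Mycl and Nolc1 each failed in 3 of the 4 fits (up to 0.153 and 0.0677).

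Metabolic genes were mostly not called one by one. Of 25 genes of glycolysis and glucose uptake 4 were called higher and 0 lower, 16% against 12.7% of all genes. Hk1, a hexokinase, rose 4.88-fold from 34.9 and 71.2 to 266 and 252.5 CPM (adjusted p = 0.00764), and Slc2a3 (Glut3), a glucose transporter, 2.42-fold from 1618 and 1226 to 3982 and 2904 CPM (adjusted p = 0.00262). Gpi1, glucose phosphate isomerase, rose 2.02-fold (adjusted p = 0.0195). Of 20 genes of the unfolded protein and integrated stress responses 1 (5%) was called, below the 12.7% of all genes, and 4 with the block. It was Asns, asparagine synthetase, which rose 3.67-fold from 234 and 421 to 1024 and 1376 CPM (adjusted p = 0.00778). Slc2a3 passed with every library left out, Hk1 and Asns failed without day 0 replicate 1 (0.0692 and 0.0731), and Gpi1 failed in 3 of the 4 fits (up to 0.109). With the block 6 glycolysis genes were called higher and 1 lower.

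Genes of oxidative phosphorylation and of the ribosome had mostly positive estimates with few calls, 2.99 and 0% against 12.7% of all genes. Of 67 oxidative phosphorylation genes 65 had a positive fold change, with a median log2 of 0.53, but 2 were called, the complex I subunit Ndufb4 (2.27-fold, adjusted p = 0.0314) and the complex IV subunit Cox6b1 (2.4-fold, adjusted p = 0.0413). With the block 14 were called higher, and with a library left out 0 or 1, Cox6b1 failing each time (up to 0.201) and Ndufb4 in 3 of the 4 fits (up to 0.21). Of 79 cytosolic ribosomal protein genes 74 were above 0, with a median log2 of 0.62, and 0 were called by edgeR against 2 by DESeq2 and 5 with the block. Short genes lay higher in general. The median log2 fold change was 0.15 over 3727 tested genes spanning under 10 kb, -0.03 from 10 to 100 kb and -0.21 at 100 kb and over, and the part of gene span in these lists was not tested. The median of the ribosomal list was 0.59 with RLE scaling and 0.56 with upper-quartile scaling, 0.30 without day 7 replicate 2 and 0.82 without day 7 replicate 1, and that of oxidative phosphorylation was 0.25 and 0.79. Near-identical pseudogenes of ribosomal protein genes can take reads from them, and how such reads were counted is not given in the sources used here.

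The 10 largest rises were taken among called genes of at least 5 CPM at day 7 whose groups did not overlap. Symbols of predicted genes were left out. These rises ran from 26.5-fold to 214-fold. Tnni1, slow skeletal troponin I, had 0 and 0.169 CPM at day 0 and 17.6 and 19.5 CPM at day 7 (214-fold by the fit, adjusted p = 0.000927). Trpm1, a cation channel of melanocytes and retina, rose 46.1-fold from 10.3 and 0.947 to 231 and 290 CPM (adjusted p = 0.00378). Crxos, an oocyte and embryo homeobox gene, rose 50.2-fold from 1.54 and 4.53 to 126 and 179 CPM (adjusted p = 0.00539), and Spic, an ETS factor known in macrophages, 28.6-fold from 1.81 and 1.39 to 40.0 and 51.5 CPM (adjusted p = 0.0005). Osm, oncostatin M and so a cytokine of the LIF family, went from 0.402 and 0.440 to 18.2 and 13.0 CPM (36.9-fold, adjusted p = 0.00184).

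Dmgdh, mitochondrial dimethylglycine dehydrogenase, rose 26.5-fold from 5.53 and 6.24 to 200 and 112 CPM (adjusted p = 0.000206), and Bhmt, which uses betaine to remethylate homocysteine, 38.4-fold from 0.201 and 2.47 to 59.4 and 43.3 CPM (adjusted p = 0.0129). Tlx2, a homeobox gene, rose 58.9-fold from 0.101 and 0.626 to 21.8 and 21.2 CPM (adjusted p = 0.0125), and the channel genes Pkd2l1 and Kcnd3 rose 58.9-fold and 35.6-fold. With a library left out the log2 fold change of Tnni1 lay between 6.76 and 12.9 and that of Trpm1 between 4.65 and 8.10. Of these 10 genes Tnni1, Trpm1, Crxos, Spic, Osm and Dmgdh passed with every library left out. Bhmt (0.0671), Tlx2 (0.0922), Pkd2l1 (0.0568) and Kcnd3 (0.062) were lost without day 0 replicate 1.

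The largest falls under the same rule, with at least 5 CPM at day 0, were Fgf5, Spry4 and Dusp4, given above, and 7 further genes. Spink1, a secreted protease inhibitor, was at 9.68 and 11.9 CPM at day 0 and at 0.111 and 0.225 CPM at day 7 (63.4-fold, adjusted p = 0.000832), and Dgkk, a diacylglycerol kinase on the X chromosome, at 7.54 and 4.43 against 0.074 and 0.075 CPM (78.0-fold, adjusted p = 0.00611). In both, the day 0 libraries were of similar level. In the other 5 they were not. Enpp2 (autotaxin), which makes lysophosphatidic acid, was at 20.3 and 1.90 CPM at day 0 (116-fold lower at day 7, adjusted p = 0.0088), Alox15, a lipoxygenase, at 14.7 and 1.86 CPM (108-fold, adjusted p = 0.0137), and Tmem54 at 10.8 and 1.52 CPM (79.8-fold, adjusted p = 0.0238). Fndc3c1 stood at 40.5 and 1.46 CPM (86.1-fold, adjusted p = 0.0429). The serine protease gene Prss23 was at 37.0 and 0.406 CPM, and its ratio of counts was 1011 with a 95% interval from 279.5 to 8351 that covers counting error only. Each of these 5 missed the threshold without day 0 replicate 1 (adjusted p = 0.062, 0.0855, 0.126, 0.414 and 0.359, in the order named), and their log2 fold changes were then -4.31, -4.60, -4.31, -2.58 and -4.28. Enpp2, Tmem54, Fndc3c1 and Prss23 also missed without either day 7 library (0.0517 to 0.207), and Alox15 without day 7 replicate 1 (0.0857). Spink1 passed each time, and Dgkk missed without day 7 replicate 1 (0.0531).

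Lists of markers of other cell types were counted in the same way. Of 26 fibroblast and smooth muscle genes tested 7 were called lower and 2 higher, 34.6% against 12.7% of all genes. Their median log2 fold change was -2.60, but 0.07 without day 0 replicate 1. Day 0 replicate 1 had 23 of the list's 28 members at 1 CPM or more and day 0 replicate 2 had 16, against 12 and 14 at day 7. The list's summed level was 2836 and 1049 CPM at day 0 and 2813 and 2293 CPM at day 7. Of these sums the single gene Fn1 held 1150 and 586 CPM at day 0 and 2412 and 1940 CPM at day 7, so they mostly follow that gene at day 7. The list held 10 lower and 2 higher calls with the block, 10 lower without day 0 replicate 2, and 2 or 3 lower without any other library. Fn1, fibronectin, which stem cells also make, rose 2.51-fold from 1150 and 586 to 2412 and 1940 CPM (adjusted p = 0.0175). Col6a2 and Fbn1, matrix genes, fell 8.04-fold (1.99 and 1.93 to 0.259 and 0.225 CPM, adjusted p = 0.00368) and 6.61-fold (adjusted p = 0.00528), and Vim, vimentin, 1.91-fold (adjusted p = 0.0212). Acta2, at 0.555 and 0.262 CPM at day 7, and Col1a1, at 1.41 and 3.75 CPM, were not called (adjusted p = 0.14 and 0.167). Day 0 replicate 2 had them at 0.102 and 1.91 CPM. Col6a2 passed with every library left out, while Vim was lost without day 0 replicate 1 (0.194) and day 7 replicate 2 (0.164), Fn1 without day 0 replicate 2 (0.0934) and day 7 replicate 1 (0.0908), and Fbn1 without day 7 replicate 1 (0.05).

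Of 16 neural genes tested 7 were called lower and 0 higher, 43.75% against 12.7% of all genes. Their median log2 fold change was -1.997, or -1.62 with members at 0 counts set at their bound. Pax6, an eye and brain factor, fell 52.6-fold from 8.93 and 3.06 to 0.111 and 0.112 CPM (adjusted p = 0.00498), and Elavl3, a neuronal RNA-binding protein, 6.06-fold from 8.91 and 15.5 to 2.29 and 1.72 CPM (adjusted p = 0.0005). Both passed with every library left out, and the list held 2 calls without day 7 replicate 1, 3 without day 7 replicate 2 and 4 without day 0 replicate 1. The list's sum was 579 and 466.5 CPM at day 0 and 279 and 316 CPM at day 7, with 11 and 10 of its 18 members at 1 CPM or more at day 0 and 7 and 6 at day 7. Primitive streak and mesoderm genes held 2 lower and 1 higher call among 19, 15.8% against 12.7% of all genes. Hand1, a factor of lateral mesoderm and trophoblast, fell 26.9-fold from 9.25 and 3.92 to 0.185 and 0.300 CPM (adjusted p = 0.0129), and failed in 3 of the 4 fits with a library left out (up to 0.0934). The list held 6 lower calls with the block, 5 without day 0 replicate 2 and 0 without any other library. Its sum was 231.4 and 33.1 CPM at day 0 and 68.7 and 34.8 CPM at day 7.

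The 23 primitive endoderm genes held 1 call (4.35%), below the 12.7% of all genes. It was Dab2, an endocytic adaptor, which fell 9.12-fold from 12.9 and 53.2 to 1.07 and 6.18 CPM (adjusted p = 0.026). Its log2 fold change was -1.83 without day 0 replicate 2 and -2.42 without day 7 replicate 1, and it was not called in either fit. With the block 6 were called lower and 1 higher. Gata6 was at 1.24 and 28.2 against 0.296 and 4.61 CPM (adjusted p = 0.224, or 0.00167 with the block). Sox17 stayed in the replicate 2 series, at 0.368 and 8.73 against 0.259 and 9.66 CPM (adjusted p = 0.97). Of 14 trophoblast genes 2 were called higher and 1 lower (Hand1), 21.4% against 12.7% of all genes. Those higher were Tfap2a (11.9-fold, 2.38 and 1.15 to 30.2 and 11.8 CPM, adjusted p = 0.00205) and Gata2 (4.09-fold, adjusted p = 0.012). Tfap2a passed with every library left out and Gata2 failed in 3 of the 4 fits (up to 0.116). The median of that list was -0.95, and 0.72 without day 0 replicate 1. Of 17 genes of the 2-cell-like state 1 (5.88%) was called, below the 12.7% of all genes, and 2 with the block. The 1 called was Pramel6, which rose 14.7-fold from 0.335 and 2.12 to 8.39 and 27.7 CPM (adjusted p = 0.027). Its log2 fold change was 3.09 without day 0 replicate 1 and 2.78 without day 7 replicate 2, and it was not called in either fit.

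The remaining lists had few calls, and 1 of them, interferon and antigen presentation, had a share (14.8%) above the 12.7% of all genes. Of 23 cell adhesion genes 1 rose, Pecam1, an adhesion receptor of naive cells (29.4 and 69.3 to 150.2 and 161 CPM, adjusted p = 0.0262), and 1 fell, Epcam (221 and 110.1 to 72.6 and 46.3 CPM, adjusted p = 0.0391). Both failed in 3 of the 4 fits with a library left out (up to 0.178 and 0.304), and the list held 2 higher and 8 lower calls with the block. E-cadherin, Cdh1, was at 641 and 288 against 806 and 448 CPM (adjusted p = 0.539). Of 27 interferon and antigen presentation genes 2 rose, among them Oas1a (5.95-fold, adjusted p = 0.0285), and 2 fell, among them Ifit2 (12.7-fold, adjusted p = 0.00618), which was lost without day 7 replicate 2 (0.0545), while Oas1a failed in 3 of the 4 fits (up to 0.185). The median of that list was -1.41, and 0.64 without day 0 replicate 1, and with the block 5 were higher and 6 lower. Of 34 genes of RNA polymerase II and elongation 1 was called, Tcea3, a TFIIS-family factor, which fell 2.08-fold from 94.7 and 96.9 to 51.1 and 41.1 CPM (adjusted p = 0.00631, or 0.056 without day 7 replicate 2). With the block 4 of that list were called lower. Of 52 replication-dependent histone genes 0 were called by edgeR and 2 by DESeq2. Of 24 cholesterol genes 1 rose and 1 fell, and with the block 1 was called higher and 4 lower. Of 15 housekeeping genes 1 was called (2 with the block), the elongation factor gene Eef2 (1.45-fold, adjusted p = 0.0408, up to 0.164 with a library left out).

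The 7-day response was then set against that of the RNAPII-mut cells, whose 4 libraries at days 0 and 7 are not shared with WT. In the mutant 2176 genes (14.2%) were called, 1107 (7.2%) higher and 1069 (6.96%) lower. The number called in both genotypes with the same sign was 1117, which is 57.1% of the WT list and 51.3% of the mutant list. Of the 1955 genes called in WT 96.5% had the same sign in the mutant, called or not. That share was not counted over all genes tested, where the log2 fold changes of the 2 genotypes had r = 0.689. Both comparisons come from 1 fit and share its estimate of spread, so the calls are not independent of each other. The test of the difference between the responses called 0 genes (0%) in edgeR, with 1178 at an unadjusted p under 0.05, and 73 by DESeq2 and 14 with the block. A difference that misses the threshold does not show that the genotypes respond alike.

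**Figure D5:**
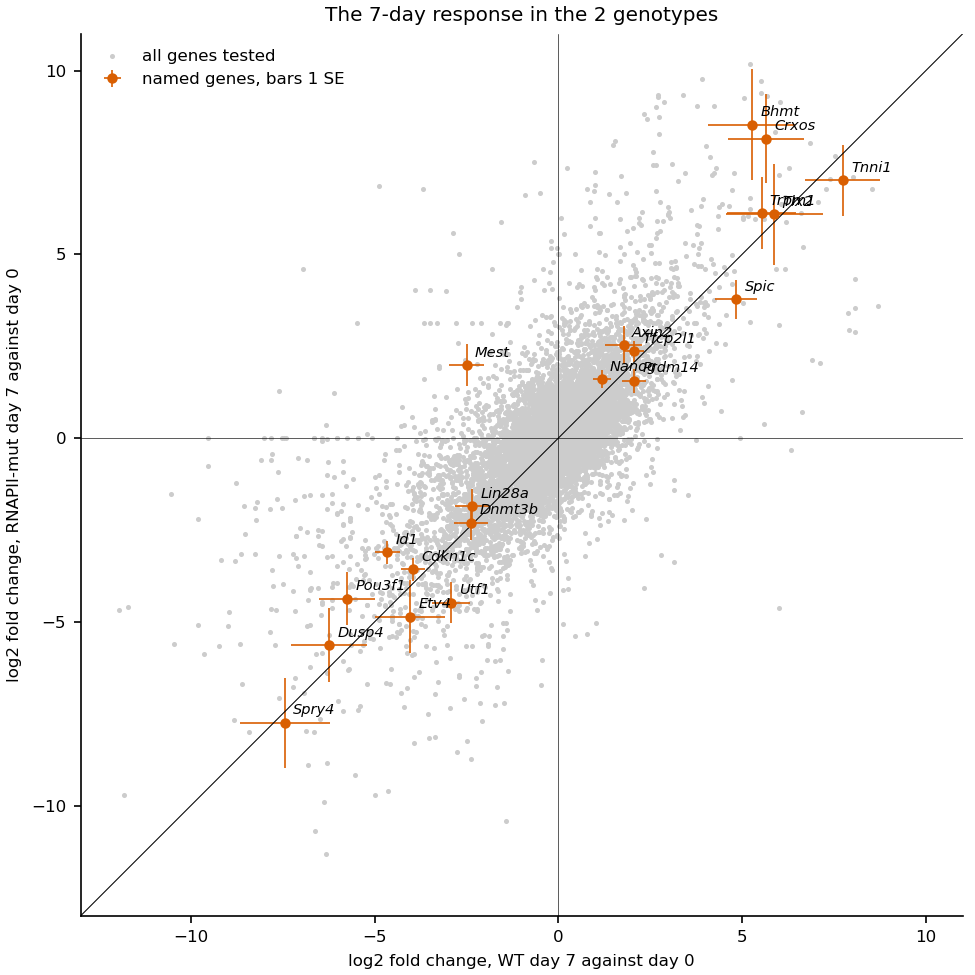
Log2 fold change from day 0 to day 7 in RNAPII-mut (y axis) against WT (x axis), each grey point 1 of 15365 genes and each orange point a named gene with bars of 1 SE in both directions, and the diagonal as the line of equal response. Spry4 and Tnni1 lie near the diagonal (-7.75 against -7.44 and 7.02 against 7.74), and Mest lies in the quadrant of a fall in WT and a rise in the mutant.

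For several members of the pathways described above the estimates were close in size. Spry4 went from 236 and 276 to 1.11 and 1.27 CPM in the mutant (log2 -7.75 against -7.44 in WT), Tfcp2l1 from 261 and 365 to 1552 and 1665 CPM (log2 2.36 against 2.05), and Dnmt3b from 344 and 191 to 49.9 and 58.3 CPM (log2 -2.31 against -2.38). Other genes had estimates further apart, and none of these differences passed the test. Dnmt3l had a log2 fold change of -4.49 in the mutant and -2.40 in WT, Fgf17 of -1.13 and -2.79, and Klf2, which was at 531 and 590 CPM in the mutant before 2i, of 0.23 and 1.03. Mest was the 1 gene called in both with opposite sign. It was at 0.241 and 0.219 CPM in the mutant at day 0 and at 0.591 and 1.24 CPM at day 7 (adjusted p = 0.036), and the difference of its responses had adjusted p = 0.263, the smallest value of any gene. The Hox list held 19 calls in the mutant and 7 in WT, all higher, and the 2-cell-like list 8 and 1, all higher, but these differences between lists were not tested. Over all genes 7.2% were called higher in the mutant and 6.62% in WT.

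Day 7 was also compared with day 2 in WT. The comparison with day 0 uses the same day 7 libraries. Between days 2 and 7 edgeR called 1 gene (0.00651%), with 691 at an unadjusted p under 0.05, and 77 were called by DESeq2 and 21 with the block. The called gene was Evc, a ciliary protein of hedgehog signalling, which was named after its value was seen. It stood at 23.8 and 29.1 CPM at day 0, 26.0 and 28.1 at day 1, 22.8 and 17.4 at day 2 and 6.84 and 6.89 CPM at day 7 (log2 -1.55 from day 2, adjusted p = 0.0208). Without day 2 replicate 1 or day 7 replicate 1 edgeR called 0 genes, and without day 2 replicate 2 it called 9. Levels by day differed among the genes above. Spry4 was already at 2.29 and 3.49 CPM at day 1 and Utf1 at 45.2 and 39.8 CPM. Id1 stepped through 48.4 and 24.7 at day 1 and 15.7 and 9.52 CPM at day 2, and Cdkn1c through 33.2 and 36.1 and then 9.66 and 10.4 CPM. Tfap2a was at 2.68 and 3.58 CPM at day 2 and reached 30.2 and 11.8 CPM at day 7, and Dmgdh went from 36.3 and 66.9 at day 2 to 200 and 112 CPM.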

How the data were processed

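Total RNA was extracted with TRIzol, treated with DNase and sequenced on DNBSeq, per the labels' protocols. The authors deposited a table of raw read counts for 20621 genes in 17 libraries. Per the submitters' processing notes, STAR, deepTools and the mm10 build were used; versions, the counting tool, its annotation and its use of strand are not given in the sources used here. Library totals, summed from the counts, were 47350441 to 56138844. Counts were tested with edgeR 4.0.16 in R 4.3.3 (quasi-likelihood, TMM scaling, filterByExpr, 15365 genes) in 1 fit over all 17 libraries, which share the estimate of spread. Adjusted p-values are Benjamini-Hochberg over all genes tested, two-sided, with a threshold of 0.05. Tables and figures were made with Python 3.11.15 and the scripts were tested on simulated data.

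Named genes were the 10 largest rises and falls among called genes of at least 5 CPM, up to 4 called members of each of 35 lists by adjusted p, fixed pathway genes whether called or not, and called genes with the smallest adjusted p of the difference between genotypes. A few other list members are named for contrast. One marker gene is not reported here by name. The members and lists were chosen with earlier results of these data known. The labels do not say that replicates are separate cultures, so p-values measure only the spread between these samples, which may be technical. Same-numbered WT libraries deviated together from their group means in 6 of 6 pairs of days (r from 0.26 to 0.764, and 0.26 for days 0 and 7), so the replicate number was used as a block within WT in an alternative; mutant libraries did not do so in 4 of 6. Other alternatives were RLE and upper-quartile scaling, other filters, fewer libraries, each library left out and DESeq2 1.42.0. Fits without replicate 1 of days 0 and 1 together, and the block combined with fewer libraries in 2 ways, were chosen after seeing the data. Promoters are from a RefSeq table on GRCm38.p6.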

Additional observations from a re-analysis of the deposited data

How the results depend on the processing

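The count of 1955 genes between WT days 7 and 0 became 4007 with the replicate block within WT, 3236 by DESeq2, 1220 without replicate 1 of WT days 0 and 1 together, 900 with the block on the 4 compared libraries, 133 without the block on them and 54 on the WT libraries alone, and 742 to 1500 with 1 library left out. The mutant count of 2176 became 3857 with the replicate block within WT, 5556 on its 4 libraries alone and 3314 by DESeq2, and 680 to 1099 with 1 library left out. The difference between genotypes held 14 calls with the replicate block, 73 by DESeq2 and 0 to 1 with 1 library left out. Between WT days 7 and 2 the 1 call became 3 with upper-quartile scaling, 0 with the replicate block over all libraries, 21 with the block within WT, 0 on the WT libraries alone, 0 on the compared groups alone, 77 by DESeq2 and 0 to 9 with 1 library left out. The cause of these moves was not tested. Of 134 named genes the replicate block within WT moved 9 past the threshold, reversed 1 and changed no other call. The fit on the WT libraries alone lost the calls of 98 of them, and that on the compared groups alone the calls of 87. On the WT libraries alone 0 naive, 0 formative and primed and 1 ERK gene were called, against 5, 5 and 9 as reported.

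Directions that turned were all of genes not called as reported. Without replicate 1 of WT days 0 and 1 together the log2 fold changes were -0.0368 for Dnmt1, 0.115 for Etv5, 6.55 for T (adjusted p = 0.0249), 0.0928 for Lef1, 0.111 for Ccnd1, -0.815 for Sox17, 1.98 for Acta2, 0.429 for Col1a1, 0.617 for Krt18 and 0.0998 for Cdh2. With 1 of the 4 libraries left out at a time they ranged from -1.11 to 0.183 for Klf5, -0.521 to 0.344 for Zfp42, -0.0364 to 0.193 for Dnmt1, -0.487 to 0.115 for Etv5, -3.87 to 6.55 for T, -3.78 to 0.0932 for Lef1, -0.923 to 0.111 for Ccnd1, -5.62 to 0.983 for Gata6, -4.12 to 3.74 for Sox17, -8.52 to 1.99 for Acta2, -4.39 to 0.43 for Col1a1, -4.05 to 0.618 for Krt18, -0.204 to 0.469 for Polr2a, -0.0513 to 1.12 for Cdh1 and -3.52 to 0.1 for Cdh2. Upper-quartile scaling gave -0.00045 for Dnmt1. Sox17 was at -0.118 with the replicate block within WT, -0.138 with that block on the WT libraries alone and -0.155 with the replicate block on the compared libraries, where T was at 0.729. The cause of these turns was not tested. Of 109 named genes called, 38 were called with each of the 4 libraries left out.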

Other observations

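Some of the changes lay in neighbouring genes, which were picked out after their values were seen. Along the chromosomes 31 runs of at least 3 adjacent tested genes were called in the same direction, 20 higher and 11 lower, with 105 genes in all. How many such runs arise without a shared cause was not tested. On chromosome 13, between 93616675 and 93752833 on mm10, Bhmt, Bhmt2 and Dmgdh, enzymes of betaine and dimethylglycine breakdown, were all higher. Bhmt2 went from 1.83 and 2.81 CPM at day 0 to 64.7 and 51.3 CPM at day 7 (log2 4.64, SE 0.67, adjusted p = 0.0014 by edgeR). Bhmt and Bhmt2 are close paralogues and may share reads. On chromosome 5, between 37241940 and 37425055, Crmp1, Evc and Evc2 were all lower. Crmp1, a cytoskeletal protein of neurons, went from 84.4 and 82.8 to 3.70 and 2.66 CPM (log2 -4.71, adjusted p = 7.26e-05 by edgeR), and Evc2, the partner of Evc at the cilium, from 29.1 and 27.9 to 8.73 and 10.3 CPM (log2 -1.58). On chromosome 3, Gstm6, Gstm3, Gstm2 and Gstm1, glutathione transferases of 1 family that may share reads, were all higher, and on chromosome 9 the collagen genes Col6a6, Col6a5 and Col6a4 were all lower.

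Several called genes outside the lists had steady values in both groups. Alpl, the alkaline phosphatase used as a stem cell stain, was at 149 and 159 CPM at day 0 and at 761.5 and 709 CPM at day 7 (log2 2.26, SE 0.23, adjusted p = 0.00021 by edgeR). Tmsb4x, an actin-binding peptide, was at 418.5 and 358 against 49.7 and 54.8 CPM (log2 -2.89, adjusted p = 0.000106 by edgeR). Gli1, a hedgehog target, was at 38.8 and 58.7 against 5.94 and 9.10 CPM (log2 -2.70, adjusted p = 0.0005 by edgeR).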
